A study of Mus musculus with 12 samples.

Results

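The 53 genes described here encode the machinery of DNA replication: origin licensing factors, the MCM helicase and its activators, the sliding clamp with its loader and the single-strand binding protein RPA, polymerases and primase, Okazaki fragment enzymes, enzymes that make deoxynucleotides, regulators of entry into S phase, and factors that copy chromatin. They were taken as a named list, and each was read from a probe set whose annotation gives that symbol alone, taking the brightest one by mean intensity where a gene had several. Of the 53 genes, 52 were on the array, out of 18193 genes with such a probe set. Chaf1a had no probe set paired with its symbol alone and is not analysed here. All 52 passed the filter on low values (above 16 intensity units on at least 3 arrays), as did 10817 genes in all, and no measured member lay under 16 units on any array. The lowest value was 49.6 units, for Orc1.

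RNA of leukaemic stem cells was measured on 12 Affymetrix mouse arrays, 3 for each of 4 groups. The groups were Msi2 mutant and wild-type blast crisis chronic myelogenous leukaemia (bcCML), sorted as Lin- cells, and Msi2 mutant and wild-type de novo acute myelogenous leukaemia (AML), sorted as Lin-Sca1-ckit+ cells. Donor stem and progenitor cells (KLS) of either genotype, the mutant being Msi2 Gt/Gt with a gene trap in Msi2, had been infected with BCR-ABL and NUP98-HOXA9 to give bcCML or with MLL-AF9 to give AML, and then transplanted; no treatment was given. The labels carry 1 strain name for every sample, B6;CB-Msi2Gt(pU-21T)2Imeg, the wild-type samples included. Age and sex of the mice and any pooling of animals are not given in the sources used here. Driver and sorting gate differ together with the leukaemia, so between bcCML and AML they cannot be told apart. Msi2 encodes the RNA-binding protein Musashi2. Its intensity lay between 487 and 721 units in mutant bcCML against 2583 to 4579 units in wild-type bcCML, and between 52.9 and 86.9 units in mutant AML against 181 to 430 units in wild-type AML, so signal remained in both mutants. Mutant AML array 1 stood apart from the other AML arrays in monocyte markers and mitosis genes, and counts over the list are also given without it.

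Replication starts at origins marked in G1 by the origin recognition complex, on which Cdc6 and Cdt1 load the ring of MCM2-7. Cyclin-dependent and Dbf4-dependent kinases then recruit Cdc45 and the GINS complex, which turn the loaded ring into an active helicase, and polymerases alpha, delta and epsilon copy the opened strands. Many of these genes are transcribed in a burst at the G1/S boundary, when cyclin E and its kinase release E2F factors from Rb proteins. In blood formation, fast-dividing progenitors carry much of this RNA, and resting stem cells little.

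The promoter sequences show a feature that was not used to choose the genes. A promoter of 250 bases before to 50 bases after the transcription start was given for 44 of the 53 genes in the RefSeq table (GRCm38.p6), and 9 had none there. The E2F letters TTTCCCGC, TTTCGCGC, TTTGCCGC and TTTGGCGC, searched on both strands with overlapping matches counted, occurred in 18 of these 44 promoters (40.9%), against 704 of 27025 genes with a promoter (2.60%) and 427 of the 8853 tested genes that have one (4.82%). In the 250 bases before the start alone, 10 of 44 held a match (22.7%), against 3.98% of the tested genes. The CCAAT box, searched as CCAAT on both strands, occurred in 28 of 44 (63.6%), against 43.1% of the tested genes. A match of letters is a description of the sequence and not a measured binding site. Windows of 60 bases from 6 of these 10 promoters, picked after the search to show the matches, are printed 5′ to 3′ on the gene's strand, all before the start, with the E2F letters in capitals. In Mcm5 and Mcm6 2 matches on opposite strands overlap.
Mcm5, chr8:75109332-75109391, plus strand: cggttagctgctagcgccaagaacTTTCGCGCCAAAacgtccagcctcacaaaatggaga
Mcm6, chr1:128359780-128359839, minus strand: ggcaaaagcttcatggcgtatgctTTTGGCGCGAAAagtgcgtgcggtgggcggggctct
Orc1, chr4:108579394-108579453, plus strand: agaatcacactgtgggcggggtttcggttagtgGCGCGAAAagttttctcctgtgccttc
Cdc6, chr11:98907987-98908046, plus strand: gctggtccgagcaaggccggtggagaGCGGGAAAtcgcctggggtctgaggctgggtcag
Pola1, chrX:93632260-93632319, minus strand: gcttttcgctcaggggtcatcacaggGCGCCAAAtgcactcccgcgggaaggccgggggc
Gins3, chr8:95633492-95633551, plus strand: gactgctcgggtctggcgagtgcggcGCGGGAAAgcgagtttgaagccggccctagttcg

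Between Msi2 mutant and wild-type cells, no replication gene passed the threshold in either leukaemia. In AML, 0 of 52 passed (limma, Benjamini-Hochberg adjusted p under 0.05 over all tested genes), where 1.52% of all tested genes did, and 7 members had an unadjusted p under 0.05, all of them lower in mutants, where 14.2% of all genes had one in either direction. Of the 52 estimates, 45 were below 0 (57.1% of all genes were), with a median log2 difference of -0.15 against -0.05 over all genes. The 3 mutant arrays all lay below the 3 wild-type arrays for 7 members (11.6% of all genes did) and above them for 0 (5.18%). With array weights in the fit, 3 members passed in AML, Gins1, Rpa2 and Pola2, all lower in mutants, and 9.73% of all genes passed. In bcCML, 0 of 52 passed, where 0.139% of all genes did, and 1 member, Orc6, had an unadjusted p under 0.05, as did 8.32% of all genes. There 35 of 52 estimates were below 0 (54.0% of all genes were), with a median of -0.10 against -0.02. Mutant arrays all lay below wild-type arrays for 7 members there too (10.1% of all genes did), and above them for 0 (5.83%). With the replicate number as a block, 0 of 52 members and 27 of all genes passed in bcCML, against 15 of all genes without it. The list's counts and medians describe it and were not tested. The groups are 3 biological replicates each, per the labels. Because these are bulk samples, fewer cycling cells and less of each RNA per cell cannot be told apart in any value given here.

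For the probe set read for each gene, the intervals limit how large a difference could have been missed. They do not cover a gene's other probe sets. In bcCML another probe set gave -0.89 for Orc2, -1.08 for Pold3 and 0.70 for Dut, where the brightest gave -0.06, 0.44 and -0.29. In AML the 95% interval of the difference lay within 1 log2 unit of 0 for 44 of 52 members (84.6%, against 62.9% of all genes). In bcCML it did so for 45 of 52 (86.5%, against 65.8%). The estimates themselves ran from -0.80 (Pola1) to 0.14 (Pold1) in AML and from -0.47 (Gins2) to 0.55 (Gins3) in bcCML. Taking both leukaemias together, 31 members had estimates below 0 in each, as 32.7% of all genes did, and 3 had estimates above 0 in each.

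**Figure D1:**
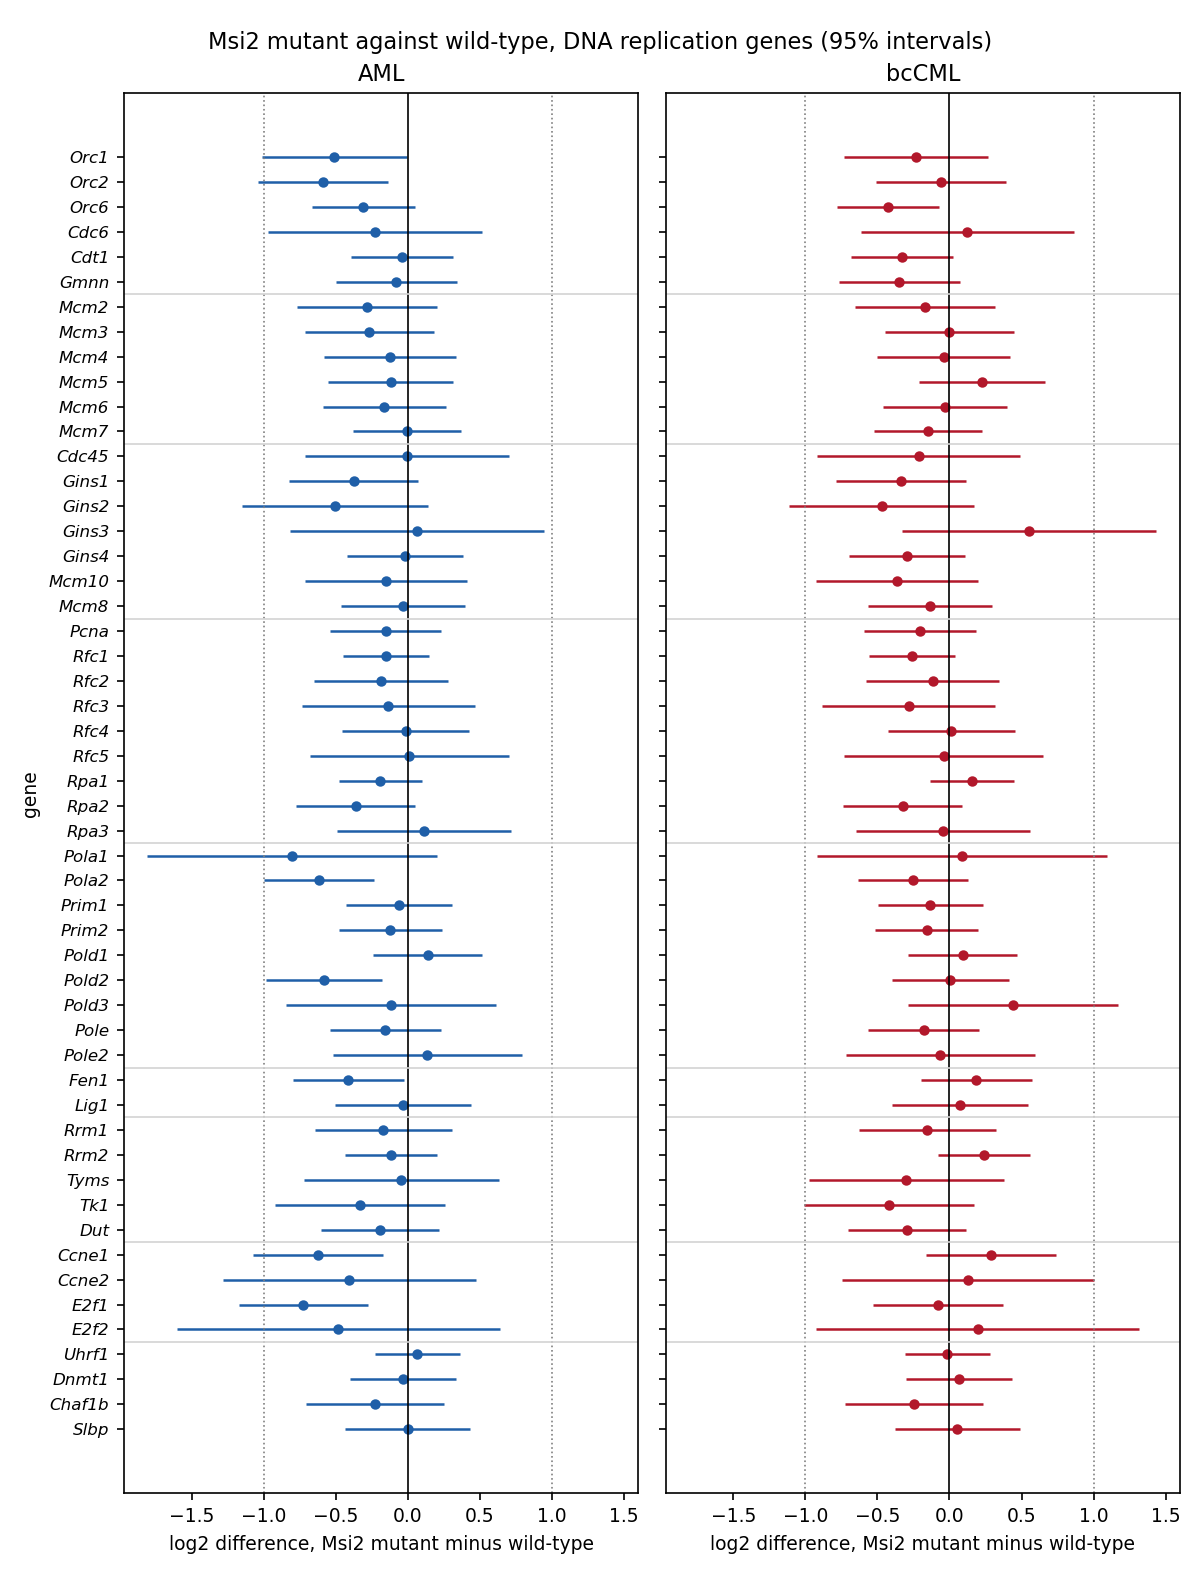
Log2 difference of Msi2 mutant minus wild-type (x axis) for each of the 52 genes (y axis, grouped by role), in AML on the left and bcCML on the right; points are limma estimates and lines their 95% intervals, with dotted lines at 1 log2 unit either side of 0. In AML 45 points lie left of 0 and in bcCML 35 do, and no gene passed the threshold over all tested genes.

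Origin licensing genes all had estimates below 0 in AML, 6 of 6, with a median of -0.27. Orc2, a subunit of the origin recognition complex, measured 338, 263 and 377 units on the 3 mutant arrays, against 494, 529 and 434 units in wild-type AML. The groups did not overlap, and the log2 difference was -0.59 ± 0.20 (SE), not past the threshold (limma adjusted p = 0.215, 95% interval -1.04 to -0.14). In bcCML the same probe set gave 668, 907 and 756 units in mutant cells and 726, 1031 and 694 units in wild-type cells, which overlap (log2 difference -0.06 ± 0.20). The other 2 Orc2 probe sets gave -0.75 and -0.72 in AML and -0.89 and -0.73 in bcCML, so for bcCML they differ from the brightest one. Orc1, the ATP-binding subunit, also had non-overlapping groups in AML, with 49.6, 57.3 and 50.5 units in mutants against 96.0, 62.2 and 69.3 units in wild-type cells (log2 difference -0.51 ± 0.23, adjusted p = 0.343). Orc6, a further subunit, had the smallest p of the licensing genes in bcCML, at 1634, 1872 and 1775 units in mutants and 2529, 2395 and 2175 units in wild-type cells. Those groups did not overlap, and the log2 difference of -0.43 ± 0.16 did not pass (adjusted p = 0.543, 95% interval -0.78 to -0.07). Geminin, encoded by Gmnn and the inhibitor of Cdt1, was likewise without overlap in bcCML, at 1746, 2149 and 2014 units in mutants against 2535, 2714 and 2269 units in wild-type cells. For the loading factors Cdc6 and Cdt1 the AML differences were -0.23 ± 0.33 and -0.04 ± 0.16.

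The 6 MCM2-7 subunits, which form the ring of the replicative helicase, had estimates close to each other. In AML they ran from -0.28 (Mcm2) to -0.0039 (Mcm7), all 6 below 0, and in bcCML from -0.17 (Mcm2) to 0.23 (Mcm5), with 5 of 6 below 0. These are values of the brightest probe sets. In bcCML the other probe sets of these genes past the filter were all below 0, with -0.08 for Mcm5 and down to -0.45 for Mcm2. Mcm3 had the smallest p of the 6 in AML, with 2178, 2166 and 2659.6 units in mutants and 2891, 3437 and 2198 units in wild-type cells (log2 difference -0.27 ± 0.20, limma adjusted p = 0.639, 95% interval -0.71 to 0.18). Mcm5 had it in bcCML, with 2139, 2226 and 1776 units in mutants and 1435, 1940.1 and 1896 units in wild-type cells (log2 difference 0.23 ± 0.20, adjusted p = 0.831, 95% interval -0.21 to 0.66). In both cases the groups overlapped. Of the 12 intervals for these genes, none reached further from 0 than -0.77, the lower bound of Mcm2 in AML. Mcm7 was without overlap in bcCML, at 5006, 5162 and 5372 units in mutants against 5393, 5864 and 5984 units in wild-type cells, although the difference was -0.15 ± 0.17.

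Among the helicase activators, the GINS subunits had estimates of both signs, none past the threshold. Gins1 measured 1392, 1202 and 1187 units in mutant AML and 1952, 1820.1 and 1223 units in wild-type AML, and 761, 1055 and 882 units in mutant bcCML and 1171, 1246 and 977 units in wild-type bcCML. The log2 differences were -0.38 ± 0.20 and -0.34 ± 0.20, with overlapping groups and adjusted p values of 0.459 and 0.702. Gins2 had estimates of -0.51 ± 0.29 in AML and -0.47 ± 0.29 in bcCML. Gins3, another subunit of the same complex, had estimates above 0, 0.06 ± 0.40 in AML and 0.55 ± 0.40 in bcCML, with the widest interval of the 4 subunits (-0.33 to 1.44 in bcCML). A dimmer Gins3 probe set gave -0.21 in AML and 0.05 in bcCML. Gins4, without overlap in bcCML, had -0.02 ± 0.18 in AML and -0.30 ± 0.18 in bcCML. Cdc45, which joins the ring together with GINS, had an AML estimate of -0.01 ± 0.32 (95% interval -0.71 to 0.70). Mcm10, which acts in helicase activation, and Mcm8, an MCM relative with a role in recombination repair, had estimates of -0.15 ± 0.25 and -0.03 ± 0.19 in AML and by -0.36 ± 0.25 and -0.14 ± 0.19 in bcCML.

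For the clamp, its loader and RPA the AML estimates ran from -0.36 (Rpa2) to 0.11 (Rpa3), none past the threshold. Pcna, the sliding clamp, had estimates of -0.15 ± 0.17 in AML and -0.20 ± 0.17 in bcCML. Rpa2, the middle subunit of the single-strand binding complex, measured 1289, 1060.3 and 971 units in mutant AML against 1603, 1603 and 1097 units in wild-type AML. That is a log2 difference of -0.36 ± 0.19 (limma adjusted p = 0.428, 95% interval -0.78 to 0.05) with overlapping groups, and in bcCML, where the groups did not overlap, it was -0.32 ± 0.19 (adjusted p = 0.689). A second, dimmer Rpa2 probe set gave -0.47 in AML and -0.73 in bcCML. Rpa1, the large subunit, had non-overlapping groups in AML and an estimate of -0.19 ± 0.13. The large clamp loader subunit gene Rfc1 measured 3351, 3147 and 3059.9 units in mutant bcCML and 3817, 4012 and 3613 units in wild-type bcCML, without overlap (log2 difference -0.26 ± 0.13, adjusted p = 0.641, 95% interval -0.56 to 0.04). Among the other loader subunits Rfc2 to Rfc5 the AML estimates lay between -0.19 and 0.01.

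The polymerase alpha complex, which with primase lays down the first primer, held the second smallest p value of the list in AML. Pola2, its accessory subunit, measured 151, 189.7 and 214 units on the mutant arrays against 294, 306 and 248 units on the wild-type arrays. Every mutant array was lower, and the log2 difference of -0.62 ± 0.17 did not pass (limma adjusted p = 0.121, 95% interval -1.0 to -0.23). In bcCML Pola2 measured 248, 323 and 302 units in mutants and 384, 316 and 341 units in wild-type cells, which overlap (log2 difference -0.26 ± 0.17, adjusted p = 0.751, 95% interval -0.64 to 0.13). Pola1, the catalytic subunit, had the lowest estimate of all 52 genes in AML, -0.80 ± 0.45, but its wild-type arrays ran from 131 to 392 units and its interval from -1.81 to 0.20. Pold2, an accessory subunit of polymerase delta, had non-overlapping groups in AML, with 456, 483 and 601 units in mutants against 718, 927 and 666 units in wild-type cells (log2 difference -0.58 ± 0.18, adjusted p = 0.171). In bcCML its estimate was 0.01 ± 0.18. The catalytic subunits of polymerases delta and epsilon, Pold1 and Pole, had estimates of 0.14 ± 0.17 and -0.16 ± 0.17 in AML, and the primase subunits Prim1 and Prim2 had -0.06 ± 0.16 and -0.12 ± 0.16. Pole2, the second subunit of polymerase epsilon, had 0.14 ± 0.29 in AML and -0.06 ± 0.29 in bcCML. For Pold3, a further delta subunit, the probe sets disagreed in bcCML, where the brightest gave 0.44 ± 0.33 and the other 2 gave -1.08 and 0.46.

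For Okazaki fragments, Fen1, the flap endonuclease, measured 6412, 6207 and 8909 units in mutant AML and 9421, 10736 and 8255 units in wild-type AML. The 2 groups overlapped, with a log2 difference of -0.41 ± 0.17 (limma adjusted p = 0.314, 95% interval -0.80 to -0.03). In bcCML the estimate was 0.19 ± 0.17 (adjusted p = 0.845), from 9454, 11209 and 11323 units in mutants and 8538, 9896 and 9653 units in wild-type cells. Lig1, the ligase that seals the fragments, had estimates of -0.04 ± 0.21 in AML and 0.07 ± 0.21 in bcCML.

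Deoxynucleotide supply genes had estimates below 0 in AML for 5 of 5, median -0.17. Tk1, the thymidine kinase of S phase, measured 2479.5, 1442 and 1832 units in mutants and 2762, 2829.6 and 1661 units in wild-type AML (log2 difference -0.33 ± 0.27, limma adjusted p = 0.665, 95% interval -0.92 to 0.26), with overlap. In bcCML it was without overlap, at 819.9, 1265 and 1201 units in mutants against 1384, 1512 and 1415 units in wild-type cells (log2 difference -0.42 ± 0.27, adjusted p = 0.727). Rrm2, the regulated subunit of ribonucleotide reductase, had the smallest p of these genes in bcCML, from 14750.2, 15587 and 12574 units in mutants and 10507, 12494 and 13404 units in wild-type cells (log2 difference 0.24 ± 0.14, adjusted p = 0.702, 95% interval -0.08 to 0.56). Its probe sets disagreed in AML, where the brightest gave -0.12 and the other 2 gave -0.17 and 0.82. They disagreed in bcCML too, where the other 2 gave 0.11 and -0.27. Tyms, which makes thymidylate, had AML and bcCML estimates of -0.04 ± 0.30 and -0.30 ± 0.30. Rrm1, the large reductase subunit, had -0.17 ± 0.21 and -0.15 ± 0.21, and Dut, which breaks down dUTP, -0.19 ± 0.18 and -0.29 ± 0.18, with a second Dut probe set at 0.39 and 0.70.

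The G1/S regulators had the lowest median of the 9 role groups in AML, -0.55, with 4 of 4 estimates below 0. E2f1, an activating E2F factor, measured 335, 306 and 431 units on the mutant arrays and 519, 745 and 519 units on the wild-type arrays. All 3 mutant arrays were lower, and the log2 difference was -0.73 ± 0.20, with the smallest p of the 52 genes but not past the threshold (limma adjusted p = 0.119, 95% interval -1.18 to -0.28). A second, dimmer E2f1 probe set gave 0.02. Ccne1, which encodes cyclin E1, measured 311, 348 and 408 units in mutant AML against 568, 604 and 469.8 units in wild-type AML, also without overlap (log2 difference -0.62 ± 0.20, adjusted p = 0.185), and its second probe set gave -0.81. In bcCML it measured 348, 585 and 379 units in mutants and 350.2, 348 and 348 units in wild-type cells (log2 difference 0.29 ± 0.20, adjusted p = 0.764, 95% interval -0.16 to 0.74). The deposited Ccne1 values agree within 0.01% on 4 of the 12 arrays, which held for 3 or more arrays in 1.74% of probe sets above the filter on every array, so its spread there is not a measured one. Cyclin E2, from Ccne2, and E2f2 had AML estimates of -0.41 ± 0.39 and -0.48 ± 0.50.

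Genes that copy chromatin had the AML median closest to 0 of the 9 role groups, -0.02 over 4 measured genes. Chaf1b, a subunit of the chromatin assembly factor that deposits histones behind the fork, measured 469, 280.3 and 266 units in mutant AML and 409, 403 and 343 units in wild-type AML (log2 difference -0.23 ± 0.22, limma adjusted p = 0.724, 95% interval -0.71 to 0.25). In bcCML it measured 318, 381 and 418 units in mutants and 427, 412 and 483 units in wild-type cells (log2 difference -0.25 ± 0.22, adjusted p = 0.832). Both pairs of groups overlapped. Uhrf1 and Dnmt1, which keep up DNA methylation after replication, had estimates of 0.07 ± 0.13 and -0.03 ± 0.16 in AML and by -0.02 ± 0.13 and 0.07 ± 0.16 in bcCML, and the histone mRNA binding protein gene Slbp had a bcCML estimate of 0.05 ± 0.20.

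The Msi2 differences of the 2 leukaemias were then compared directly. For the bcCML difference minus the AML difference, limma called 0 of 52 members and 0 of all 10817 genes, with 4 members and 9.37% of all genes at an unadjusted p under 0.05. Those 4 were Ccne1 (0.91 ± 0.29, adjusted p = 0.362), Fen1 (0.60 ± 0.24), Pold2 (0.59 ± 0.26) and E2f1 (0.65 ± 0.29), each with the lower estimate in AML. For the mean of both differences, 0 of 52 passed (0.471% of all genes did), and 9 members had an unadjusted p under 0.05, all lower in mutants (13.7% of all genes in either direction), with Pola2 at -0.44 ± 0.12 (adjusted p = 0.145) and Orc6 at -0.37 ± 0.11 (adjusted p = 0.185).

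Within a group, replicate arrays were high or low for most members together. The list's level on an array, the mean over the 52 genes of log2 intensity minus each gene's mean over the 12 arrays, was 0.01, -0.24 and -0.01 on the mutant AML arrays and 0.19, 0.38 and -0.19 on the wild-type AML arrays. It was -0.23, 0.11 and -0.08 in mutant bcCML and -0.08, 0.15 and -0.02 in wild-type bcCML. The group means were -0.08 ± 0.14 in mutant AML and 0.13 ± 0.29 in wild-type AML, and -0.07 ± 0.17 in mutant bcCML and 0.02 ± 0.12 in wild-type bcCML (SD, n = 3 each), and in both leukaemias the groups overlapped. The labels do not say that replicate numbers pair the arrays, but in bcCML arrays of the same number deviated together. If they are taken as pairs there, the mutant level was the lower one in each of the 3, which was not tested. Wild-type AML array 3 was the lowest of its group for 46 of 52 members (88.5%, against 46.9% of all genes), and wild-type AML array 2 the highest for 44 (84.6%, against 39.2%). In mutant AML, array 2 was the lowest for 37 members (71.2%, against 34.8%). In mutant bcCML, array 1 was the lowest for 36 (69.2%, against 43.2%) and array 2 the highest for 38 (73.1%, against 34.6%). The AML median of -0.15 became -0.02 without wild-type array 2, with 29 of 52 estimates below 0, and -0.32 without wild-type array 3, with 50 of 52 below 0.

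**Figure D2:**
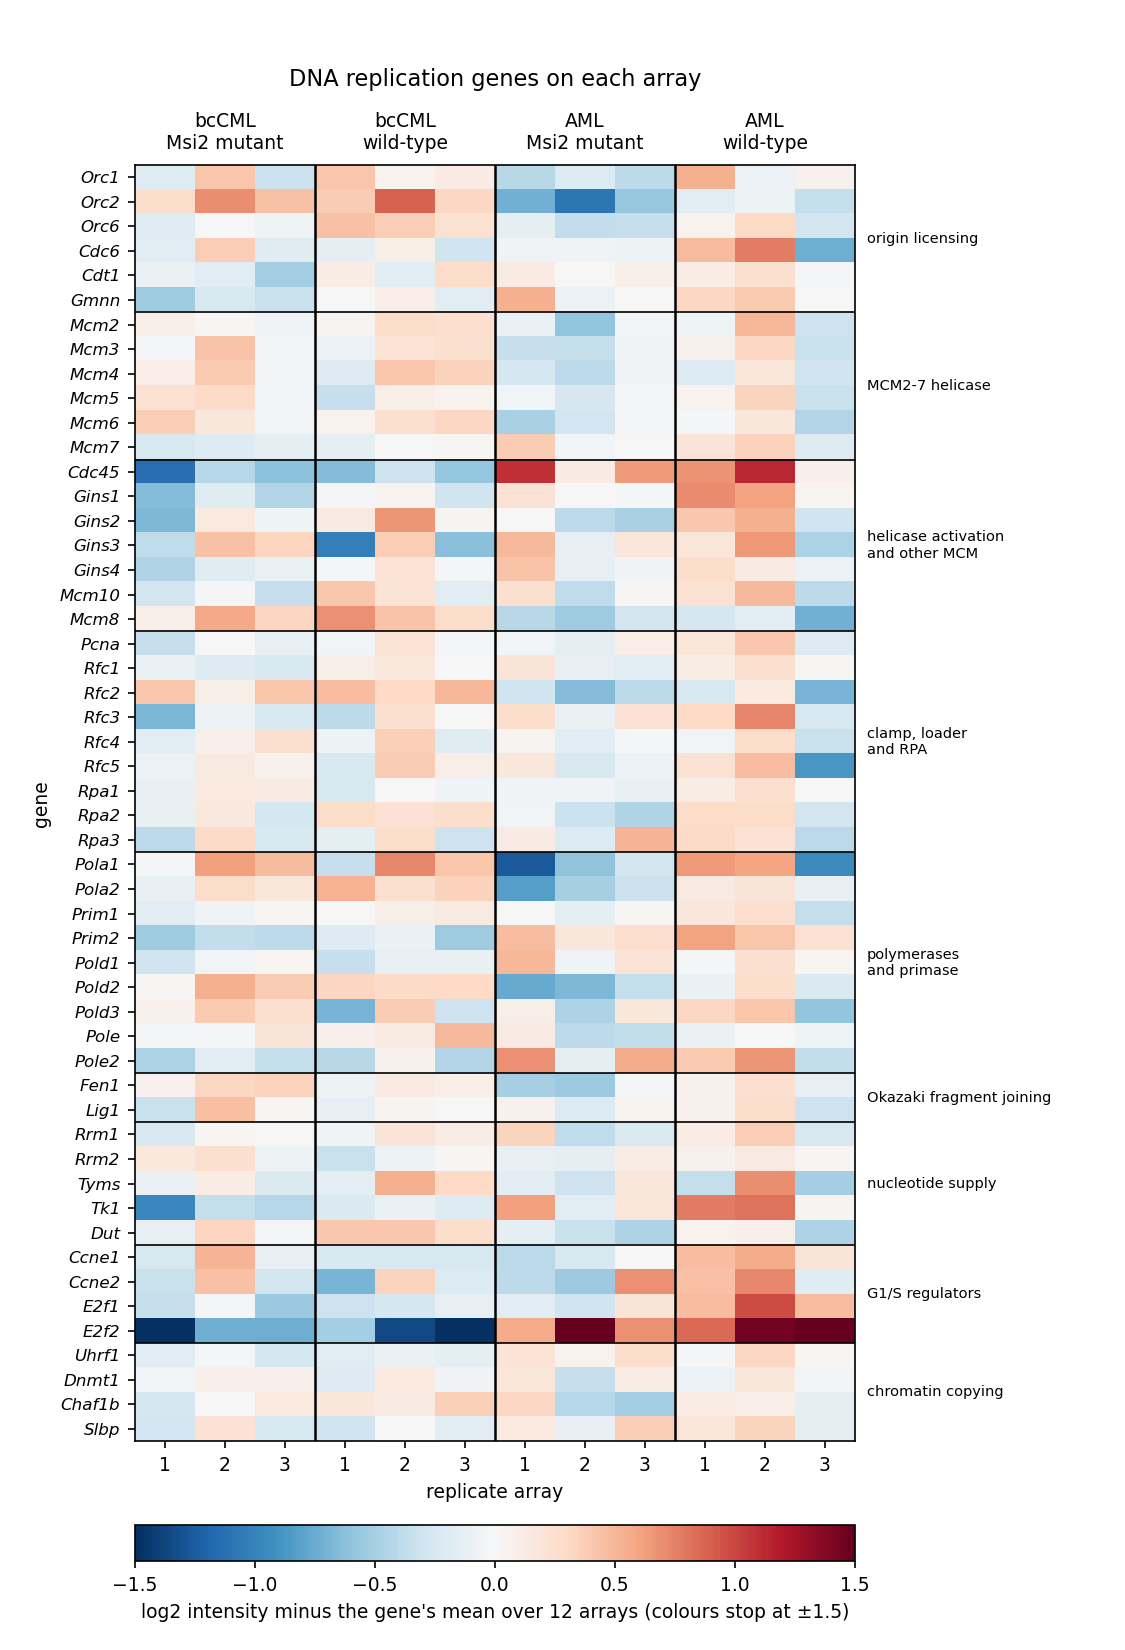
Log2 intensity of each of the 52 genes (rows, by role) on each of the 12 arrays (columns, 3 per group), minus the gene's mean over all arrays; red is above and blue below it, and colours stop at 1.5 either side. Wild-type AML array 2 is red and array 3 pale or blue over most rows, and the strongest contrast between the leukaemias is in the E2f2 and Cdc45 rows.

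One AML array stood apart in cell markers. Mutant AML array 1 had a summed intensity of 18342 units over the 16 of 17 monocyte and macrophage markers on the array, against 47353 and 68565 units on the other mutant arrays and 34862 to 50828 units on the wild-type AML arrays. On the same array the 39 tested mitosis genes lay at 0.73 on the scale used for the replication list, against -0.42 and -0.11 on the other mutant arrays and -0.01 to 0.27 in wild-type AML. Without it, the median AML difference of the replication genes was -0.22, with 50 of 52 estimates below 0 and 0 past the threshold. The 12 of 13 neutrophil granule markers on the array summed to between 211626 and 243523 units in mutant AML and between 131227 and 174766 units in wild-type AML, and to between 3946 and 16703 units in mutant bcCML and between 11890 and 36976 units in wild-type bcCML. In AML 10 of the 12 had estimates above 0 and 2 below. Ltf passed as higher in mutants (2.66 ± 0.55, limma adjusted p = 0.0467). Mmp8 passed as lower (-3.34 ± 0.38, limma adjusted p = 0.00499), at 9.92 to 23.9 units in mutants and 97.1 to 288 units in wild-type AML. The part of the cell markers in the replication gene values was not tested.

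**Figure D3:**
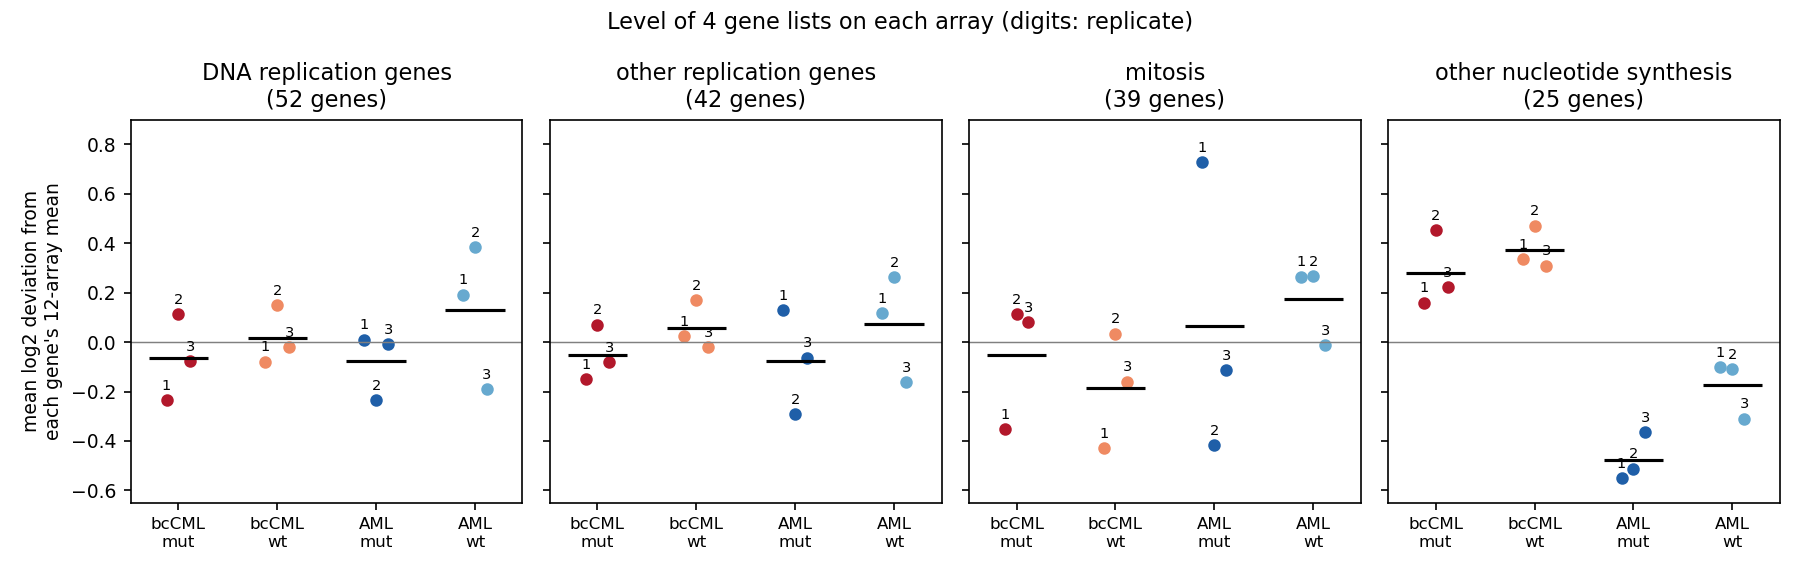
Level of 4 gene lists (mean log2 deviation from each gene's mean over the 12 arrays, y axis) on every array, by group (x axis; mut is Msi2 mutant, wt is wild-type); digits are replicate numbers and bars group means. The replication lists overlap between all groups, mutant AML array 1 is far above the other mutant AML arrays for mitosis genes at 0.73, and the remaining nucleotide synthesis genes are above 0 on all 6 bcCML arrays and below 0 on all 6 AML arrays.

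Between the leukaemias, most replication genes differed little, and a few differed clearly. In wild-type cells, 8 of 52 members passed the threshold (15.4%), where 36.9% of all tested genes did. Orc2, Mcm8 and Rfc2 were higher in bcCML, and E2f2, Cdc45, E2f1, Prim2 and Ccne1 were lower, that is 3 higher (17.7% of all genes) and 5 lower (19.3%). In Msi2 mutant cells, 11 of 52 passed (21.2%), where 45.1% of all genes did. Orc2, Pold2, Rfc2, Mcm8, Pola2 and Fen1 were higher in bcCML, and E2f2, Cdc45, Tk1, Prim2 and Gmnn were lower, that is 6 higher (23.2% of all genes) and 5 lower (21.9%). The median size of the difference was 0.25 log2 units over the members and 0.50 over all genes in wild-type cells, and 0.29 and 0.59 in mutant cells. Differences of more than 1 log2 unit were seen for 2 members in wild-type cells (3.85%, against 27.9% of all genes) and for 4 in mutant cells (7.69%, against 32.3%). In total 13 members passed in at least 1 genotype, 6 of them in both, and 39 in neither. The wild-type count was 5 without wild-type AML array 1, without wild-type bcCML array 1 and without wild-type bcCML array 3, each time 5 of the same 8 genes. In those fits 30.3%, 31.2% and 29% of all genes passed.

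**Figure D4:**
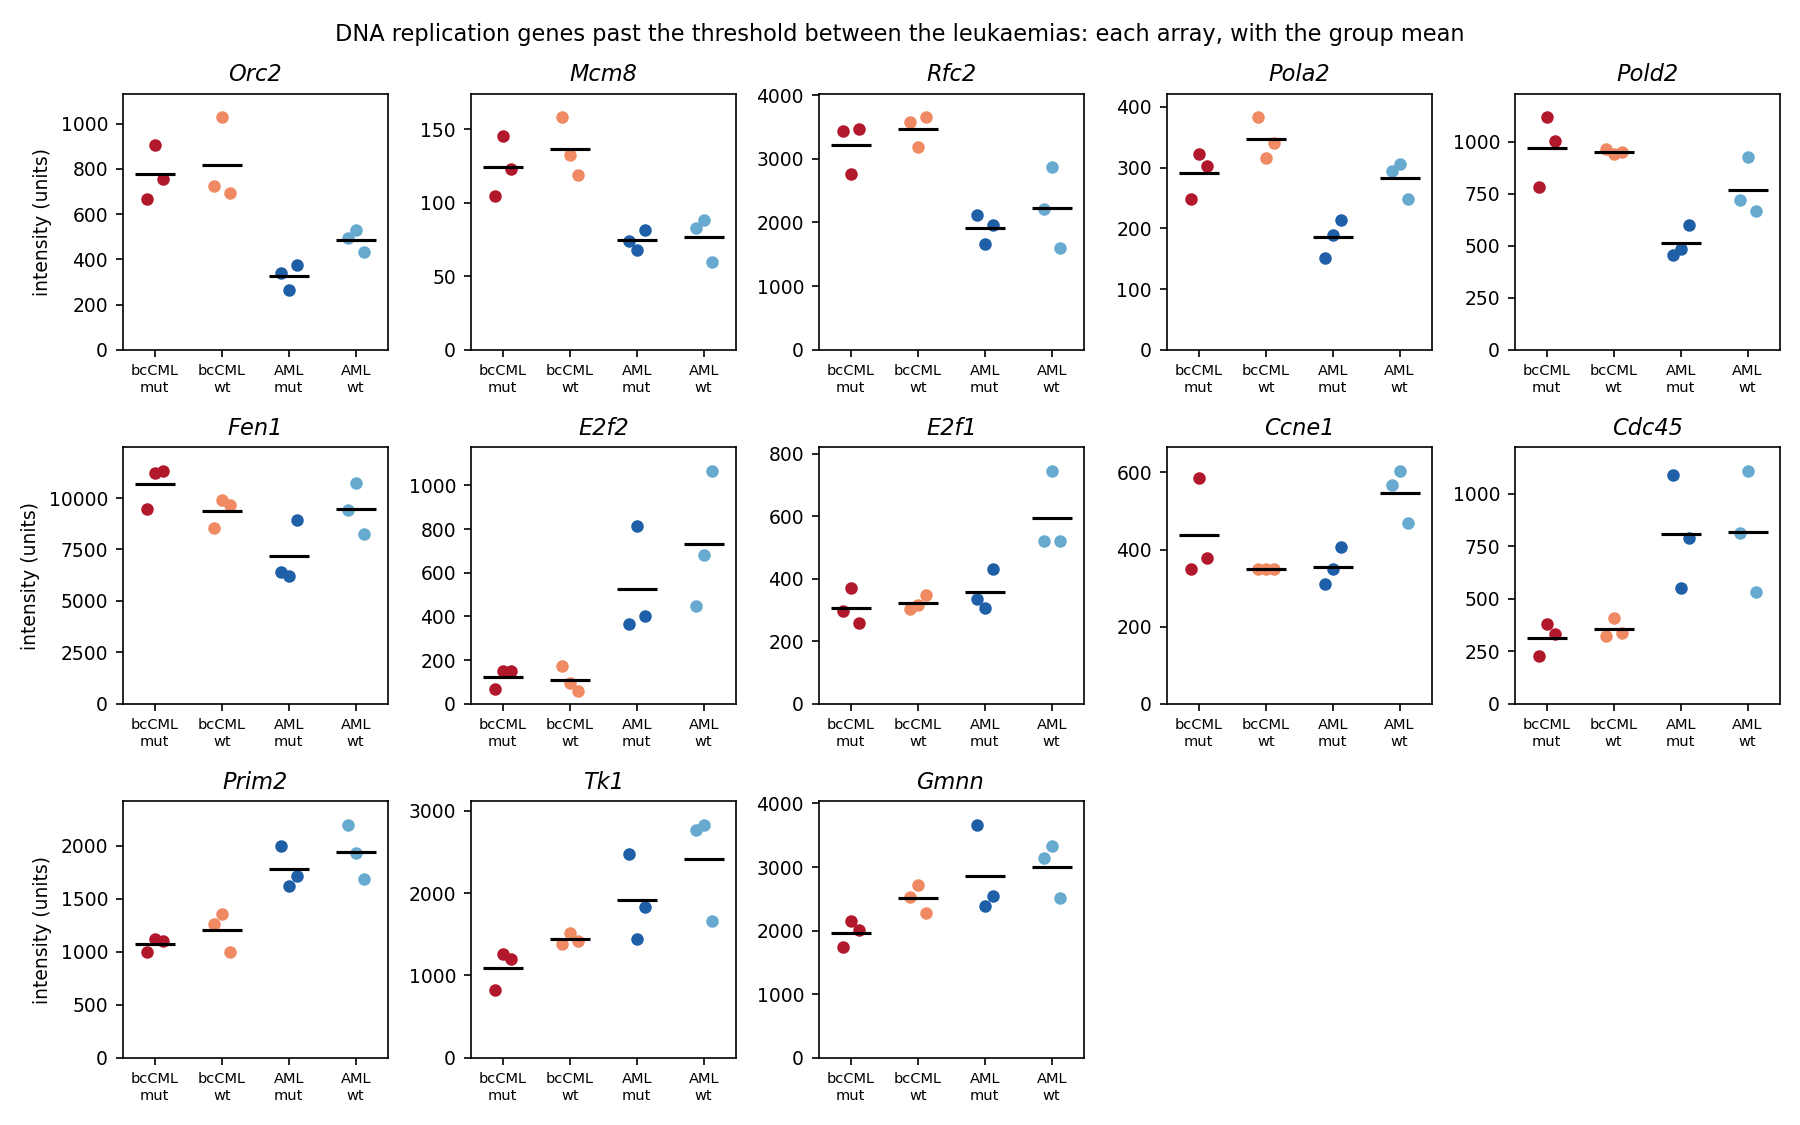
Intensity on each array (points, linear y axis from 0 in intensity units) of the 13 genes past the threshold between bcCML and AML in at least 1 genotype, by group (x axis; mut is Msi2 mutant, wt is wild-type); bars are group means. E2f2 reaches at most 175 units on the 6 bcCML arrays and at least 366 on the 6 AML arrays, and Orc2 is at least 668 units on the 6 bcCML arrays and at most 529 on the 6 AML arrays.

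E2f2, an activating E2F factor, had the largest difference of the list. It measured 66.9, 149.7 and 149.8 units in mutant bcCML against 366, 813 and 402 units in mutant AML, and 175, 97.3 and 58.6 units in wild-type bcCML against 448, 681 and 1067 units in wild-type AML. Every bcCML array lay below every AML array, with log2 differences of -2.11 ± 0.50 in mutant cells and -2.78 ± 0.50 in wild-type cells (limma adjusted p = 0.00666 and 0.00173). Its second probe set gave -1.97 and -3.02, both past the threshold when every probe set was fitted on its own. The 250 bases before the upstream of the 2 listed starts of E2f2, shown because this gene differed most, are given on the plus strand with the CCAAT letters in capitals; they hold no E2F letters, and 1 match lies 40 bases after that start.
E2f2, chr4:136172024-136172273, plus strand: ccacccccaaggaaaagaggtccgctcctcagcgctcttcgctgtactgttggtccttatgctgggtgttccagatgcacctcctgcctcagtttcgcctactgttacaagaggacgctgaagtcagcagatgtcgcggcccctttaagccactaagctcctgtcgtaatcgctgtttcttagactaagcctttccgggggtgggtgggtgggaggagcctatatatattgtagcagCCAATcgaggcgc
E2f1 passed in wild-type cells, where it measured 303, 316 and 348 units in bcCML and 519, 745 and 519 units in AML (-0.86 ± 0.20, adjusted p = 0.00723). In mutant cells it measured 297, 369 and 257 units in bcCML and 335, 306 and 431 units in AML, with overlap (-0.22 ± 0.20, adjusted p = 0.412). Ccne1 passed in wild-type cells, at 350.2, 348 and 348 units in bcCML and 568, 604 and 469.8 units in AML (-0.64 ± 0.20, adjusted p = 0.0302), on the probe set with repeated values; its other probe set gave -0.62 and did not pass.

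Cdc45 was lower in bcCML in both genotypes. It measured 229.6, 378 and 332 units in mutant bcCML against 1089, 551 and 789.9 units in mutant AML, and 322, 411 and 339 units in wild-type bcCML against 811, 1109 and 533 units in wild-type AML. The groups did not overlap in either genotype, and the log2 differences were -1.35 ± 0.32 and -1.14 ± 0.32 (limma adjusted p = 0.00617 and 0.0176). A second, dimmer Cdc45 probe set gave a smaller difference of -0.57 in wild-type cells. In mutant cells its group levels were 22.8 units in bcCML and 35.3 units in AML. The 250 bases before its start, shown as those of the member with the second largest wild-type difference, hold no E2F letters and 1 CCAAT match in reverse, ATTGG, in capitals.
Cdc45, chr16:18811973-18812222, minus strand: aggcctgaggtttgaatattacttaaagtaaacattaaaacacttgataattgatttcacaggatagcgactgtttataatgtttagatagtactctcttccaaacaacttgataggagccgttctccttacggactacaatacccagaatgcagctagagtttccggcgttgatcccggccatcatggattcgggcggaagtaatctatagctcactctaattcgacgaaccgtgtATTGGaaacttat
Prim2, the large primase subunit, was also lower in bcCML, with 993, 1117 and 1097 units in mutant bcCML against 1991, 1622 and 1712 units in mutant AML and 1256, 1351 and 993 units in wild-type bcCML against 2195, 1926 and 1685 units in wild-type AML. All 6 bcCML arrays lay below all 6 AML arrays (-0.73 ± 0.16 in mutant cells, adjusted p = 0.00432; -0.69 ± 0.16 in wild-type cells, adjusted p = 0.00706). Its partner Prim1, the catalytic primase subunit, had estimates of -0.02 ± 0.16 and 0.05 ± 0.16.

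Orc2, Mcm8 and Rfc2 were the members higher in bcCML in both genotypes. Orc2 measured 668, 907 and 756 units in mutant bcCML against 338, 263 and 377 units in mutant AML, and 726, 1031 and 694 units in wild-type bcCML against 494, 529 and 434 units in wild-type AML. All 6 bcCML arrays lay above all 6 AML arrays (1.26 ± 0.20, limma adjusted p = 0.000636, and 0.73 ± 0.20, adjusted p = 0.017), and the other 2 probe sets passed in both genotypes too. Orc1 and Orc6, the other origin subunits of the list, did not pass, with Orc1 at 0.30 ± 0.23 and 0.03 ± 0.23 and Orc6 at 0.21 ± 0.16 and 0.32 ± 0.16 in mutant and wild-type cells. A dimmer Orc1 probe set gave a larger difference of 0.47 in wild-type cells. In mutant cells its group levels were 56.6 units in bcCML and 34.2 units in AML. Mcm8 measured 105, 146 and 123 units in mutant bcCML against 74.1, 67.8 and 81.1 units in mutant AML, and 158, 133 and 119 units in wild-type bcCML against 82.8, 88.5 and 59.6 units in wild-type AML (0.74 ± 0.19 and 0.84 ± 0.19, adjusted p = 0.0109 and 0.00674). Rfc2, a small clamp loader subunit, measured 3431, 2753 and 3463 units in mutant bcCML against 2112, 1658 and 1954 units in mutant AML, and 3575, 3189 and 3658 units in wild-type bcCML against 2205, 2865 and 1596 units in wild-type AML (0.75 ± 0.21 and 0.68 ± 0.21, adjusted p = 0.0142 and 0.0265). Mcm8 did not overlap between the leukaemias over all 12 arrays. Rfc2 did not overlap within either genotype, although mutant bcCML array 2 lay below wild-type AML array 2. The 6 MCM2-7 genes had differences from -0.30 to 0.43 in mutant cells and from -0.16 to 0.30 in wild-type cells, none past the threshold.

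Further members passed in mutant cells and missed the threshold in wild-type cells. Pold2 measured 781, 1121 and 1004 units in mutant bcCML and 456, 483 and 601 units in mutant AML (0.91 ± 0.18, limma adjusted p = 0.00245), with 0.32 ± 0.18 in wild-type cells. Pola2 had 248, 323 and 302 units in mutant bcCML and 151, 189.7 and 214 units in mutant AML (0.66 ± 0.17, adjusted p = 0.0104), with 0.30 ± 0.17 in wild-type cells. For Fen1 the mutant difference was 0.59 ± 0.17 (adjusted p = 0.0189) and the wild-type one -0.01 ± 0.17. These 3 were higher in bcCML, without overlap between the mutant groups. Tk1 and Gmnn were lower in mutant bcCML, with differences of -0.80 ± 0.27 for Tk1 (adjusted p = 0.0318; -0.71 ± 0.27 in wild-type cells) and -0.52 ± 0.19 for Gmnn (adjusted p = 0.0453; -0.25 ± 0.19 in wild-type cells). Whether the leukaemia difference itself depends on the genotype is the same contrast as the interaction given earlier, in which no member passed. The calls of Gmnn, Fen1 and Tk1 ended without mutant AML array 1, the array low in monocyte markers (limma adjusted p = 0.14, 0.0552 and 0.105). Leaving out some other arrays ended them too. Fen1 did not pass without mutant AML array 2 (limma adjusted p = 0.0683). Gmnn and Tk1 did not pass without mutant bcCML array 1 (limma adjusted p = 0.136 and 0.114).

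Summed levels of the lineage marker lists did not overlap between the leukaemias, except for T and NK cells. The same monocyte and macrophage markers summed to between 1412 and 2390 units on the bcCML arrays and between 18342 and 68565 units on the AML arrays, with Csf1r, which defines that lineage, between 4.5 and 5.14 units in bcCML, at the floor of 4.49. In wild-type cells 12 of the 15 tested passed as lower in bcCML, and 1, Fcgr1, passed as higher. Fcgr1 lay between 16.3 and 54.2 units in wild-type bcCML and between 4.68 and 9.04 units in wild-type AML. The 9 of 13 erythroid markers on the array summed to between 10747 and 22766 units in bcCML and between 2799 and 5003 units in AML, where Gata1 lay between 8.51 and 9.44 units. Most of the AML sum was Tfrc, at 2741 to 4952 units there and 6080 to 9756 units in bcCML. Hba-a1 lay between 4.49 and 4.52 units on every array. Megakaryocyte markers, 7 of 8 on the array, summed to between 7133 and 20661 units in bcCML and between 257 and 1232 units in AML, although Vwf and Gp1bb overlapped between the leukaemias. Mast cell and basophil markers, 6 of 8 on the array, ran from 17131 to 26739 units in bcCML and from 1560 to 5954 units in AML. Most of the bcCML sum was Gata2, at 14650 to 16527 units there and 187 to 4901 units in AML. Ms4a2 did not overlap between the leukaemias either, while Cpa3, Mcpt8 and Hdc did. B cell markers, 8 of 9 on the array, ran from 124 to 289 units in bcCML and from 591 to 1153 units in AML, with Cd79b past the threshold in both genotypes and the other 2 tested in neither. T and NK cell markers, 10 of 12 on the array, ran from 7663 to 10697 units in bcCML and from 1528 to 8073 units in AML, most of it Nkg7, which passed in wild-type cells and not in mutant cells, while Cd3e and Cd4, which define T cells, lay under the filter on every array. The part of these lineages in the replication gene differences was not tested.

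Genes outside the list were read from further lists of the same pathways. Of 42 other tested replication genes, 0 passed in either Msi2 comparison, with 5 at an unadjusted p under 0.05 in AML and 2 in bcCML, all lower in mutants (14.2% and 8.32% of all genes had one in either direction). Between the leukaemias 10 of the 42 passed in mutant cells, 5 in each direction, and 9 in wild-type cells, 4 higher and 5 lower in bcCML, where 45.1% and 36.9% of all genes passed. With the smallest p values in wild-type cells were Pold4, the smallest polymerase delta subunit (-1.19 ± 0.23), the histone chaperone gene Asf1b (-1.15 ± 0.23), the helicase-nuclease gene Dna2 (-0.76 ± 0.20) and the mismatch repair gene Msh6 (0.79 ± 0.21). Orc4, a further origin subunit named after its value was seen, was higher in bcCML (0.54 ± 0.15 in mutant and 0.48 ± 0.15 in wild-type cells). Of the 39 tested mitosis genes, 0 passed in either Msi2 comparison, with 0 at an unadjusted p under 0.05 in both, and 1 passed between the leukaemias in each genotype, the condensin gene Smc4 (-0.57 ± 0.16 in mutant and -0.49 ± 0.16 in wild-type cells).

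Of the 5 nucleotide supply genes in the replication list 1, Tk1, passed between the leukaemias, in mutant cells. Of 25 other nucleotide synthesis genes tested, 19 passed in mutant cells, 14 higher and 5 lower in bcCML, and 16 in wild-type cells, 13 higher and 3 lower (45.1% and 36.9% of all genes passed). Cad, which starts pyrimidine synthesis, measured 797, 1144 and 918 units in mutant bcCML against 237, 299 and 301 units in mutant AML and 777, 1058 and 1111 units in wild-type bcCML against 505, 487 and 419.7 units in wild-type AML (log2 differences 1.77 ± 0.19 and 1.05 ± 0.19). Ppat, the first enzyme of purine synthesis, was higher in bcCML, with log2 differences of 1.13 ± 0.17 in mutant and 1.03 ± 0.17 in wild-type cells. Ctps2, a CTP synthase, was lower, with -0.99 ± 0.14 and -0.76 ± 0.14. Cda, which deaminates cytidine, measured 976, 1206 and 986 units in mutant bcCML and 835, 587 and 470.0 units in wild-type bcCML, and lay at the floor, 4.49 to 4.52 units, on all 6 AML arrays, so the size of its difference was not measured. In the Msi2 comparisons 0 of the 25 passed, with 8 at an unadjusted p under 0.05 in AML, all lower in mutants, and 4 in bcCML, 1 higher and 3 lower (14.2% and 8.32% of all genes).

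**Figure D5:**
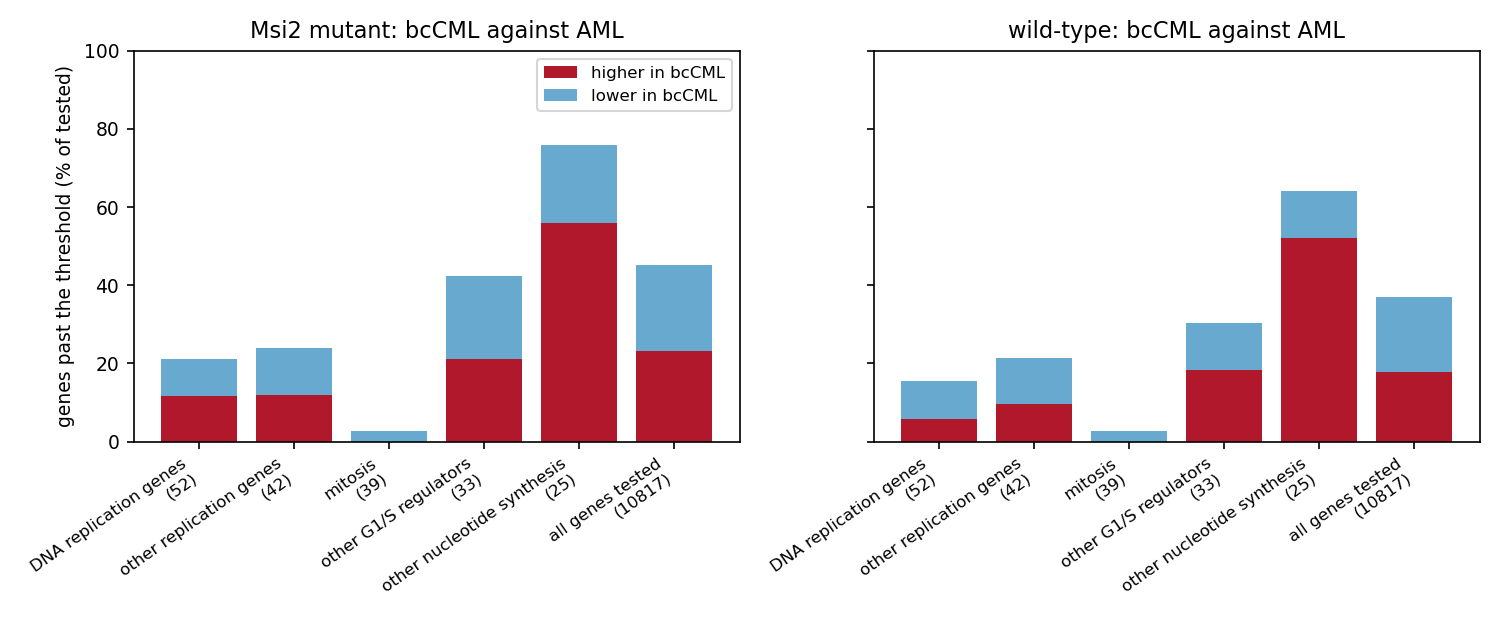
Share of tested genes past the threshold between bcCML and AML (y axis, percent, bars from 0) for 5 gene lists and for all tested genes (x axis, number tested in brackets), in Msi2 mutant cells on the left and wild-type cells on the right; red is higher and blue lower in bcCML. The replication list stands at 21.2% and 15.4% and all tested genes at 45.1% and 36.9%.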

How the data were processed

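The authors deposited 1 linear intensity for each probe set and array. GCRMA is the tool that the submitters' processing notes name, and which version or settings were used is not given in the sources used here. The lowest deposited intensity is 4.49. Of 45037 probe sets, 34945 had 1 gene symbol, 932 several, and 9160 were not listed. Intensities were put on a log2 scale without further scaling, and 1 probe set per gene was kept, the one with the highest mean (36 members had several past the filter). A gene was tested if above 16 units on at least 3 arrays. All 12 arrays were fitted together in limma 3.58.1 (R 4.3.3) with Benjamini-Hochberg adjustment over the 10817 genes tested, and a threshold of 0.05. The fit was tested on simulated data. Array medians were 13.1 to 13.8 units, and the number of arrays limits the precision.

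Members, lists and tests were chosen with earlier results of these data known. Values on every array are given for the smallest p of each role in AML and bcCML and for members past the threshold between the leukaemias, with further members after their values were seen. In lists of other genes up to 4 past the threshold are named, those with the smallest p between the wild-type leukaemias, and any further gene is said to have been named after its values were seen. In bcCML, mutant and wild-type arrays of the same replicate number deviated together (correlations of deviations from the group means 0.396, 0.364 and 0.278). In AML they did not (-0.06, -0.12 and -0.03). The labels do not say what arrays of the same number share, so a pairing of samples in bcCML is only a reading from the data. Alternatives were other filters, a pseudocount, quantile normalization, array weights, an intensity trend, all probe sets of a gene, fewer arrays, a block and leaving out each array.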

Additional observations from a re-analysis of the deposited data

How the results depend on the processing

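Over 22 alternatives, no difference past the threshold changed direction, and 26 of 37 results for single members kept their side of the threshold in each of them. With array weights, which gave wild-type AML array 1 a weight of 4.99 and mutant AML array 1 a weight of 0.279, 3 members passed in the AML Msi2 comparison (Gins1, Rpa2 and Pola2, all lower in mutants; 9.73% of all genes passed), 3 for the mean of both Msi2 differences (6.93%), and 17 between wild-type bcCML and wild-type AML, 6 higher and 11 lower (56.6%); the cause was not tested. In the other alternatives 0 members passed in either Msi2 comparison. Leaving out 1 array at a time gave 5 to 10 of 52 members between the wild-type leukaemias, where 3137 to 4351 of all 10817 genes passed. Between the mutant ones it gave 8 to 14 of 52 members, where 4003 to 4903 of all genes passed. The median AML Msi2 difference in these fits ran from -0.32 to -0.02. With the replicate block, 0 members passed in either Msi2 comparison and 8 between the wild-type leukaemias. Between the mutant leukaemias 9 passed, as Gmnn and Tk1 did not (limma adjusted p = 0.0558 and 0.0512). For the Msi2 comparisons the block was the replicate number within each leukaemia. Between the leukaemias it was the number alone, a pairing that the labels do not give. There, deviations of same-number arrays correlated at 0.02, 0.24 and 0.11 in wild-type cells. In mutant cells the correlations were 0.04, -0.02 and -0.08. The block changed no other member's call. Over the alternatives other than leaving out an array, the block among them, 3606 to 6122 of all genes passed between the wild-type leukaemias. Between the mutant ones 4241 to 5380 did. The count of all genes in the AML Msi2 comparison was 164, 63 with the block, 1053 with array weights and 0 with the AML arrays alone, and the bcCML one was 15, 27 with the block and 0 with the bcCML arrays alone. Between wild-type leukaemias the calls of Ccne1, Rfc2, Cdc45 and Orc2 ended in 6, 5, 4 and 2 alternatives, and E2f2, E2f1, Prim2 and Mcm8 passed in all; between mutant ones those of Gmnn, Tk1, Fen1 and Rfc2 ended in 15, 7, 5 and 1. The share of promoters with E2F letters was 22.7% in the bases before the start alone. With 3 arrays a group and 8 residual degrees of freedom, the width of the intervals limits what could be seen. The signal was above the filter on every array for all 52 genes. The choice of 1 probe set per gene is a further limit, because the intervals do not cover a gene's other probe sets.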

Other observations

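Of 33 other tested regulators of the G1/S step, which act upstream of the replication genes, 14 passed the threshold between the leukaemias in mutant cells, 7 in each direction, and 10 in wild-type cells, 6 higher and 4 lower in bcCML. Of all tested genes 45.1% and 36.9% passed, so as a group these regulators did not pass at a higher rate. Ccnd2, which encodes cyclin D2, measured 2950.2, 4332 and 4108 units in mutant bcCML against 757, 608 and 421 units in mutant AML, and 5011, 4684 and 4934 units in wild-type bcCML against 274, 149.6 and 888 units in wild-type AML, without overlap. Its log2 differences were 2.69 ± 0.52 and 3.88 ± 0.52. The other D cyclins, named after their values were seen, ran the other way, with Ccnd1 at -1.92 ± 0.52 and -2.29 ± 0.52 and Ccnd3 at -1.15 ± 0.19 and -1.29 ± 0.19, all past the threshold (limma). Among inhibitors of their kinases, Cdkn2a was higher in bcCML (2.95 ± 0.42 in mutant and 2.93 ± 0.42 in wild-type cells), from 94.2, 189 and 285 units in mutant bcCML and 14.6, 28.8 and 26.1 units in mutant AML. Cdkn2d was lower in bcCML (-0.85 ± 0.15 and -1.57 ± 0.15). E2f5, an E2F factor of the repressing kind, lay between 21.9 and 27.1 units on the 6 bcCML arrays and between 4.52 and 7.93 units, under the filter, on the 6 AML arrays. In the Msi2 comparisons 0 of the 33 passed in limma, with 5 at an unadjusted p under 0.05 in AML and 3 in bcCML, where 14.2% and 8.32% of all genes had one.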
